A study of Mus musculus with 6 samples.

Results

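The genes described here were 4 receptors of the interleukin 6 (IL-6) family (Il6ra, Il6st, Osmr and Lifr), the transcription factors Stat3, Cebpb and Cebpd, the inhibitors Socs3 and Socs2, and the fibrinogen gene Fgb. They were chosen by gene symbol as receptors of the family, Stat3 and genes that STAT3 induces, and made up 10 of the 24422 gene symbols with deposited read counts. RNA-seq of whole kidney compared pups of dams fed an iron-deficient diet (FeD, approximately 2 to 6 ppm iron) with pups of control dams, whose diet held 220 ppm iron and was iron-sufficient. All pups were wild type C57BL/6 mice at postnatal day 15, with 3 kidneys in each group, and the dams ate the diets from before mating until that day. The deprivation was therefore maternal and nutritional, acted on the whole pup, and was not restricted to the kidney. The number of litters was not given in the sources used here, so litter and diet cannot be told apart.

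IL-6 family cytokines signal through gp130, a receptor subunit encoded by Il6st that almost all members of the family share. A ligand-binding partner (the products of Il6ra, Osmr, Lifr or Il11ra1) decides which cytokine a cell can answer, and the assembled receptor activates JAK kinases that phosphorylate STAT3. STAT3 then enters the nucleus and induces, among other genes, its own gene, Cebpd, acute phase genes such as the fibrinogens, and Socs3, whose product binds gp130 and the JAKs and ends the signal. In the injured kidney the pathway is known for the response of the tubule to inflammatory cytokines. RNA counts measure transcripts and not the phosphorylation of STAT3, and a count per gene does not separate membrane-bound from soluble receptor isoforms.

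The libraries held 16189041 to 20374327 counts in control kidneys and 13732173 to 20853293 in FeD kidneys. At these depths 3 counts, taken as the smallest signal, equalled 0.144 to 0.218 CPM (counts scaled to the library total), a limit that covers counting error only. Whole kidney was recognised in all 6 libraries by abundant Umod, Slc12a1, Lrp2 and Aqp2. Control kidney 2 stood apart in Mpo, a gene of neutrophil precursors, with 58.6 normalized counts against at most 1.3 in any other kidney. Libraries of a group differed by more than sampling noise (chi-square per degree of freedom of 3.39 to 26), so none was counted as a duplicate.

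All 10 genes passed the filter on low counts. Of these, 9 rose in FeD kidneys, none fell and only Fgb did not pass (adjusted P under 0.05, edgeR's quasi-likelihood test with P adjusted by Benjamini-Hochberg over 15145 tested genes). The same test called 22.4% of all tested genes higher and 23.3% lower. Since the 10 genes were chosen with earlier results of these data known, the shares here are a background and not a test of the set. At the additional threshold of a 2-fold change, 5 of the genes rose (Cebpd, Socs2, Osmr, Il6ra and Socs3), against 4.34% of tested genes higher and 5.69% lower. The 9 genes that rose were also those in which every FeD kidney lay above every control kidney, which held for 28.4% of tested genes in that direction and for 29.7% in the other. The median log2 fold change was 0.98 over the 10 genes, with a range of 0.11 to 1.94, and -0.0018 over all tested genes.

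**Figure D1:**
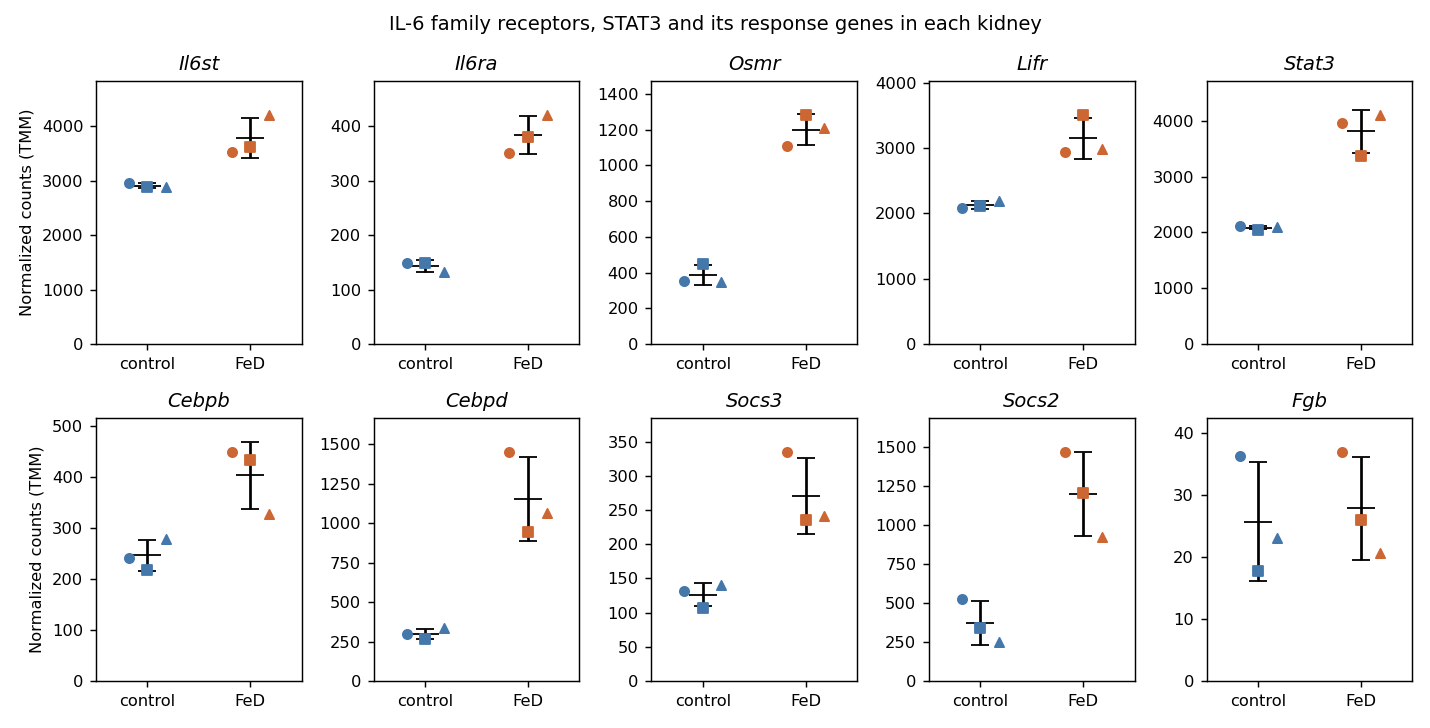
Normalized counts (counts scaled by TMM library sizes, y axis from 0) of each of the 10 genes in the 3 control and 3 FeD kidneys; each symbol is 1 kidney (circle, square and triangle for replicates 1, 2 and 3, which are different animals in the 2 groups), and horizontal lines with bars give mean ± SD. The FeD kidneys lie above all control kidneys in every panel but Fgb.

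Il6st, the shared gp130 subunit, was the most abundant of the receptors. Normalized counts (counts scaled to the average library by the TMM method) were 2962, 2889.6 and 2885 in control kidneys 1, 2 and 3 and 3525, 3624 and 4203 in FeD kidneys 1, 2 and 3. The control values nearly coincided, and the lowest FeD kidney lay 1.19-fold above the highest control. Il6st rose from 2912 ± 43.2 to 3784 ± 366 (SD, n = 3), a log2 fold change of 0.38 (SE 0.08; adjusted P = 0.00493, edgeR). The gene lies on chr13:113265216-113297068 of mm9. In RNA of whole kidney, more cells of a type and more RNA per cell cannot be told apart, here and in every result that follows.

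Il6ra encodes the subunit that binds IL-6 itself. Its normalized counts were 149.5, 149 and 132 in control kidneys and 349.9, 380.4 and 419.5 in FeD kidneys, with the groups far apart and the lowest FeD kidney 2.34-fold above the highest control. The mean went from 144 ± 10.3 to 383 ± 34.9 (SD, n = 3), a log2 fold change of 1.42 (SE 0.11; adjusted P = 7.66e-05, edgeR), and ranked 917 by size of change among the tested genes. The gene lies on chr3:89673246-89717084 of mm9.

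Osmr, which pairs with gp130 to bind oncostatin M, changed most among the 4 receptors. It had 355, 449 and 349.6 normalized counts in control kidneys and 1108, 1280.2 and 1210.2 in FeD kidneys. The lowest FeD kidney lay 2.47-fold above the highest control. Osmr rose from 384 ± 56.0 to 1199 ± 86.7 (SD, n = 3), with a log2 fold change of 1.64 (SE 0.12; adjusted P = 4.59e-05, edgeR). Osmr lies on chr15:6763577-6824313 of mm9, on the same chromosome as Lifr.

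Lifr encodes the partner of gp130 for leukemia inhibitory factor and takes part in the receptors of several other ligands. Normalized counts were 2080.2, 2106 and 2189 in control kidneys and 2944, 3498 and 2991 in FeD kidneys, again without overlap. The increase from 2125 ± 57.1 to 3144 ± 307 (SD, n = 3) was smaller than that of Osmr, at a log2 fold change of 0.56 (SE 0.08; adjusted P = 0.000751, edgeR). Lifr lies on chr15:7079559-7147489 of mm9.

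Of the 4 other receptor genes of the family, 1 rose, 2 fell and Cntfr, the receptor of ciliary neurotrophic factor, was not called (0.11 on the log2 scale, adjusted P = 0.416, edgeR). Il11ra1, the ligand-binding receptor of IL-11, had 1248, 1289 and 1276 normalized counts in control kidneys and 931, 957 and 854 in FeD kidneys. It therefore moved opposite to Il6ra and Osmr, falling by 0.48 on the log2 scale (SE 0.07; adjusted P = 0.000959, edgeR). Il31ra, whose product pairs with that of Osmr to bind IL-31, rose from 18.2, 11.1 and 11.6 to 51.0, 71.4 and 44.9 normalized counts (log2 fold change 2.01, SE 0.31; adjusted P = 0.00136, edgeR). Il27ra, which pairs with gp130 to bind IL-27, fell by 0.79 (adjusted P = 0.0476, edgeR), and this call was lost in 9 of 13 alternatives, among them the omission of any control kidney or of FeD kidney 1 or 2 (highest adjusted P 0.156).

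Because levels of different genes can be compared only per length, each receptor was divided by Il6st in the same kidney after both were expressed as counts per kilobase of exon. The ratio of Il6ra to Il6st was 0.0786, 0.0805 and 0.0711 in control kidneys and 0.155, 0.164 and 0.155 in FeD kidneys. The ratio of Osmr to Il6st was 0.129, 0.167 and 0.131 in control kidneys and 0.338, 0.380 and 0.310 in FeD kidneys. In both ratios the groups were fully separated, so both transcripts increased more than that of the shared subunit. The ratio of Il11ra1 to Il6st was also separated, in the opposite direction, at 0.508 ± 0.0155 in control and 0.284 ± 0.0410 in FeD kidneys (SD, n = 3). For these 3 ratios the two-sided exact permutation P was 0.1, the smallest that 3 against 3 kidneys can give. For Lifr the ratios overlapped, at 0.368 ± 0.0143 and 0.422 ± 0.0639 (two-sided exact permutation P = 0.3, n = 3), so an increase of Lifr beyond that of Il6st was not shown.

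**Figure D2:**
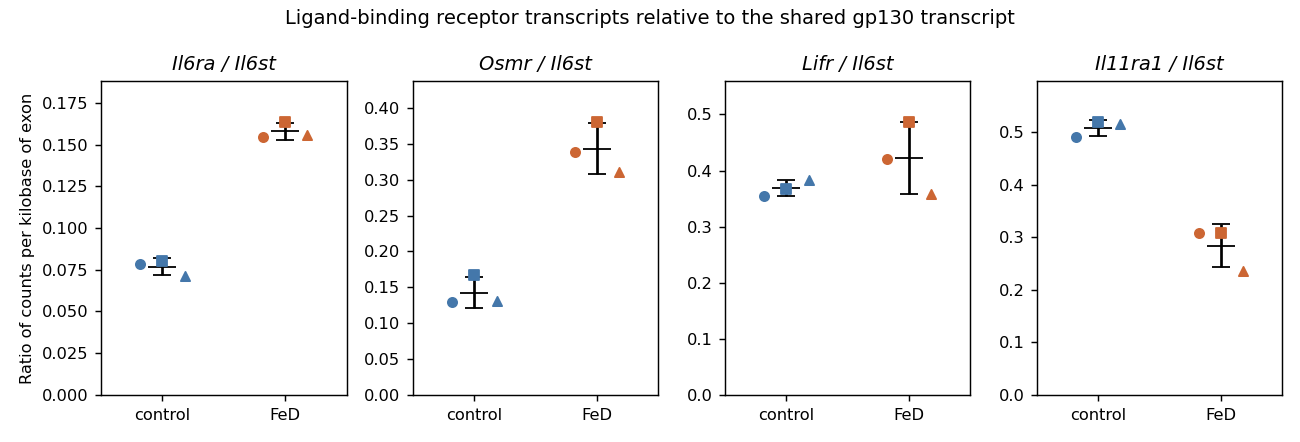
Ratio of counts per kilobase of exon of Il6ra, Osmr, Lifr and Il11ra1 to Il6st in each kidney (y axes from 0; circle, square and triangle for replicates 1, 2 and 3; lines and bars, mean ± SD, n = 3). FeD kidneys lie above control kidneys for Il6ra and Osmr, below them for Il11ra1, and overlap with them for Lifr.

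The ligands of these receptors differed widely in level in the same libraries. Of 11 genes for ligands and ligand subunits, 5 passed the filter on low counts. Il6 had 0 or 1 raw counts in every kidney and Osm, the ligand of the Osmr receptor, had 0 to 6, so a difference in either was not detectable at this depth. Il11 had 15.3, 19.9 and 13.3 normalized counts in control kidneys and 23.0, 19.5 and 24.2 in FeD kidneys, overlapping groups that did not pass (adjusted P = 0.206, edgeR). Lif (log2 fold change -0.07, adjusted P = 0.896, edgeR) and Ctf1, cardiotrophin 1 (-0.36, adjusted P = 0.18), did not pass either. Ctf1 was the most abundant per length of the ligand genes named here in control kidneys, at 173 ± 10.8 normalized counts per kilobase of exon, and had 134 ± 38.6 in FeD kidneys (SD, n = 3). Cntf, Il27, Ebi3 and Ctf2 were too low to test, with at most 13.0 normalized counts in any kidney.

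Clcf1 encodes a subunit of a secreted cytokine that acts through Cntfr, Lifr and gp130. It had 202, 164 and 183 normalized counts in control kidneys and 385, 341 and 234 in FeD kidneys, which did not overlap. Clcf1 rose with a log2 fold change of 0.80 (SE 0.19; adjusted P = 0.00903, edgeR).

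Stat3, the transcription factor at the end of the receptor cascade, had 2114, 2052 and 2092 normalized counts in control kidneys and 3954, 3375 and 4096 in FeD kidneys. The control kidneys lay within a narrow range, and every FeD kidney was at least 1.60-fold above the highest of them. Stat3 rose from 2086 ± 31.2 to 3808 ± 382 (SD, n = 3), a log2 fold change of 0.87 (SE 0.08; adjusted P = 0.000133, edgeR), which was below the 2-fold threshold. It lies on chr11:100746412-100800854 of mm9, where 0.756% of its exon bases overlap exons of Stat5a on the opposite strand.

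Among 9 tested genes for the other JAK kinases and STATs, 2 rose and 3 fell, with a median log2 fold change of 0.05. Over all tested genes 22.4% rose and 23.3% fell. Jak2, a kinase that gp130 and the growth hormone receptor use, had 854, 839.7 and 794 normalized counts in control kidneys and 1501, 1531 and 1607 in FeD kidneys. It rose by an amount similar to Stat3, with a log2 fold change of 0.90 (SE 0.06; adjusted P = 4.84e-05, edgeR). Stat2, a mediator of the type I interferon response, went the other way, from 611, 667 and 565 to 441, 467 and 453 normalized counts, and fell by 0.44 (adjusted P = 0.00441, edgeR). Calls of smaller changes were less stable. Jak1 (log2 fold change 0.23, adjusted P = 0.0302, edgeR) was no longer called without any one of the control kidneys or with the replicate number as a block (up to 0.118). Its log2 fold change stayed between 0.18 and 0.29. Stat5a (-0.34, adjusted P = 0.0193, edgeR) lost its call without control kidney 3 or FeD kidney 2 (up to 0.0698). Leaving out a control kidney also cut the genes passing over the whole table, from 6924 to between 5019 and 5311. Jak3, Tyk2, Stat5b and Stat6 did not pass, and Stat4 was not tested.

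Socs3, the feedback inhibitor of gp130 signaling, had 132, 107 and 139.7 normalized counts in control kidneys and 335, 235 and 242 in FeD kidneys. FeD kidney 1 stood above the others of its group, and the lowest FeD kidney was 1.68-fold above the highest control. The mean went from 126 ± 17.0 to 271 ± 55.9 (SD, n = 3), a log2 fold change of 1.09 (SE 0.18; adjusted P = 0.00162, edgeR). The adjusted P held in every alternative tried, but the fold fell just under 2 without FeD kidney 1 (0.93) or without control kidney 2 (0.99). Per kilobase of exon, the ratio of Socs3 to Stat3 was 0.200 ± 0.0246 in control and 0.234 ± 0.0425 in FeD kidneys, with overlapping groups (SD, n = 3; two-sided exact permutation P = 0.4).

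Socs3 and Fgb, a feedback gene that rose and an acute phase gene that did not pass, were the genes, among the 8 with a promoter entry, whose promoters held the letters TTCNNNGAA, the core of the STAT recognition motif. The motif is its own reverse complement, so a single search covered both strands. RefSeq promoter windows of 300 bases, 250 before to 50 after the start, were given for 8 of the 10 genes and not for Socs2 and Cebpd. Of 32544 such windows over all genes, 8.33% held the motif. The stretches below run 5′ to 3′ on the gene's strand from 210 to 91 bases before the RefSeq start and overlap no annotated exon of GENCODE, with the motif in capitals. The first lies at chr11:117830771-117830890 of mm9 (minus strand) inside the annotated span of Socs3, which begins further upstream on that strand. The second lies at chr3:82853876-82853995 of mm9 (minus strand), upstream of Fgb.
Socs3: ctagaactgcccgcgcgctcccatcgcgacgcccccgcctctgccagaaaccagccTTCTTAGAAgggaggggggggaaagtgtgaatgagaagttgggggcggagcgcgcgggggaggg
Fgb: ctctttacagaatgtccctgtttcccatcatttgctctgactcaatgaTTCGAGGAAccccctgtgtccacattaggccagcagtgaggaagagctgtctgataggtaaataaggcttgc
The motif begins 154 bases before the start of Socs3 and 162 bases before that of Fgb. The letters TTNCGNAA, a core of the motif that C/EBP factors bind and also its own reverse complement, were in 2.49% of all windows and among these genes only in that of Il6ra, as TTTCGTAA starting 116 bases before the start. A match of letters is a description of the sequence and not evidence that a factor was bound there.

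Socs2, an inhibitor induced by growth hormone through STAT5 as well as by cytokines, had the widest control spread of the 10 genes in relation to its mean, with 524, 341 and 249 normalized counts. FeD kidneys had 1467, 1205 and 923, so the lowest was still 1.76-fold above the highest control. Socs2 rose from 371 ± 140.2 to 1198 ± 272 (SD, n = 3), a log2 fold change of 1.69 with the largest standard error of the 9 genes that rose (SE 0.27; adjusted P = 0.00152, edgeR). Socs2 lies on chr10:94847996-94879814 of mm9.

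Of 11 other inhibitors of JAK-STAT signaling, 4 rose and 2 fell. Cish, like Socs2 a target of STAT5, had 749, 871 and 786 normalized counts in control and 1125, 1095 and 947 in FeD kidneys (log2 fold change 0.40, SE 0.09; adjusted P = 0.00963, edgeR). Socs6 (0.38, adjusted P = 0.00466, edgeR) and Pias1 (0.42, adjusted P = 0.00159), which restrain cytokine and STAT signaling, rose by similar amounts, and Socs5 fell by 0.54 (adjusted P = 0.00168). Pias3, an inhibitor of STAT3, passed narrowly (log2 fold change 0.23, adjusted P = 0.0375, edgeR). It lost the call without any one of the control kidneys, without the low-count filter, by DESeq2 and with the replicate number as a block (up to 0.115). Socs1, an inhibitor of interferon signaling with 18.8 to 28.8 normalized counts in control kidneys and 3.90 to 15.0 in FeD kidneys, fell by 1.21 (adjusted P = 0.0459, edgeR). That call was lost without any one of the control kidneys, without FeD kidney 2 or 3, without the low-count filter and by DESeq2 (up to 0.13). None of these inhibitors rose 2-fold, whereas Socs3 and Socs2 did.

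Socs2 was set beside 5 genes of growth hormone signaling and its STAT5 output. Ghr, the growth hormone receptor, had 1841, 2135 and 1794 normalized counts in control kidneys and 3501, 3454 and 3427 in FeD kidneys (log2 fold change 0.85, SE 0.07; adjusted P = 0.000113, edgeR). Igf1, the growth factor that STAT5 induces, went from 2446, 2339 and 1889 to 365, 448 and 583, and fell by 2.25 (SE 0.17; adjusted P = 5.92e-05, edgeR). Igfals, a binding partner of circulating IGF-1, fell by 1.06 (adjusted P = 0.00223, edgeR) and Prlr, the prolactin receptor, by 0.73 (adjusted P = 0.000979). Thus Socs2 and Cish moved up while Igf1 and Igfals moved down in the same kidneys. The fall of Igfals was under 2-fold without control kidney 2 or FeD kidney 3 (as little as -0.85). Igfbp3, an IGF-binding protein, did not pass (0.28, adjusted P = 0.104).

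Cebpd, a transcription factor of the acute phase response that STAT3 induces directly, changed more than any other of the 10 genes. It had 296, 269 and 333 normalized counts in control kidneys and 1452, 945 and 1063 in FeD kidneys, and the lowest FeD kidney was 2.84-fold above the highest control. Cebpd rose from 299 ± 32.1 to 1153 ± 265 (SD, n = 3), a log2 fold change of 1.94 (SE 0.17; adjusted P = 0.000102, edgeR), and ranked 433 by size among all tested genes. It lies on chr16:15887379-15888559 of mm9, in a locus that the GENCODE annotation of this build types as a pseudogene.

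Cebpb, the C/EBP factor long known as nuclear factor for IL-6, had 242, 218 and 279 normalized counts in control kidneys and 449, 434 and 327 in FeD kidneys. FeD kidney 3 was the lowest of its group, at 1.17-fold above the highest control. The mean went from 246 ± 31.0 to 403 ± 66.3 (SD, n = 3), a log2 fold change of 0.71 (SE 0.15; adjusted P = 0.00559, edgeR). Cebpb lies on chr2:167514415-167515918 of mm9, and 20.7% of its exon bases overlap exons of Tmem189 on the opposite strand. Tmem189 itself was more abundant, at 1862 ± 219 normalized counts in control and 2979 ± 222 in FeD kidneys (SD, n = 3), and rose by 0.68 (adjusted P = 0.000815, edgeR). Since the strand setting of the counting was not given in the sources used here, reads of the overlap cannot be assigned to either gene, and the part of Tmem189 in the result for Cebpb was not tested.

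Cebpa, the C/EBP factor of differentiated epithelium, moved opposite to both. It had 696, 683 and 738 normalized counts in control kidneys and 150.0, 156 and 180.4 in FeD kidneys, and fell by 2.12 on the log2 scale (SE 0.10; adjusted P = 8.86e-06, edgeR). Per kilobase of exon, the ratio of Cebpd to Cebpa was 0.945 ± 0.0635 in control kidneys and 16.1 ± 4.77 in FeD kidneys (SD, n = 3), with the lowest FeD kidney at 13.1. Transcripts of the pair were thus about equally abundant in controls, and Cebpd was the more abundant by over an order of magnitude in FeD kidneys. The ratio of Cebpb to Cebpa went from 0.610 ± 0.0517 to 4.43 ± 1.10 (SD, n = 3; two-sided exact permutation P = 0.1 for both ratios, the smallest possible). Of the other C/EBP genes, Cebpg (log2 fold change 0.25, adjusted P = 0.0214, edgeR) lost its call without control kidney 1 or 2 (up to 0.111) and Cebpz (0.35, adjusted P = 0.024) without control kidney 2, control kidney 3 or FeD kidney 2 (up to 0.0933). Ddit3 did not pass and Cebpe was not tested.

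Fgb encodes the beta chain of fibrinogen, an acute phase protein made mainly by the liver. It had 36.4, 17.7 and 23.1 normalized counts in control kidneys and 37.0, 26 and 20.7 in FeD kidneys, the lowest level of the 10 genes. The groups overlapped almost completely, with means of 25.8 ± 9.63 and 27.9 ± 8.31 (SD, n = 3). The log2 fold change of 0.11 (SE 0.35; adjusted P = 0.829, edgeR) changed sign without control kidney 2 (-0.10) or FeD kidney 1 (-0.14). With 16 to 38 raw counts a kidney and an SE of 0.35, a small difference could have been missed. Fgb lies on chr3:82846169-82853725 of mm9.

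The other fibrinogen chains did not move alike. Fgg, the gamma chain, was as scarce as Fgb, with 38.3, 34.3 and 19.6 normalized counts in control and 35.0, 36.4 and 33.7 in FeD kidneys (log2 fold change 0.19, SE 0.29; adjusted P = 0.619, edgeR). Fga, the alpha chain, had 268, 268 and 289 in control kidneys and 686, 1087 and 346 in FeD kidneys, every one above the controls but spread over a wide range. Its log2 fold change was 1.35 (SE 0.35; adjusted P = 0.0136, edgeR), and the call was just lost without control kidney 2 (adjusted P = 0.0503). The log2 fold change was 0.92 without FeD kidney 2. Per kilobase of exon, Fga was 6.54 ± 2.21 times as abundant as Fgb in control kidneys and 14.4 ± 7.86 times in FeD kidneys (SD, n = 3; two-sided exact permutation P = 0.1). Fibrinogen transcripts were thus in unequal supply in either group.

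Beyond the fibrinogens and the members themselves, genes known to be induced by STAT3 in liver, kidney or immune cells were examined as a list. Of 28 genes, Fga and Fgg included, 24 were tested, 17 rose, 1 fell and 6 did not pass. Of those that rose, 8 did so at least 2-fold. Over all tested genes 22.4% rose, 23.3% fell and 4.34% rose at least 2-fold. The median log2 fold change of the list was 0.71, against -0.0018 over all tested genes. The list was chosen with earlier results of these data known, so these comparisons describe it and do not test a STAT3 response. The summed level of the list was 839.9 to 915.4 CPM in control and 1355 to 1521 CPM in FeD kidneys. Without control kidney 2, 13 of the genes rose.

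The largest increase of the list was that of Serpina3n, a secreted inhibitor of serine proteases from a multigene family whose copies could share reads, from 10.5, 17.7 and 14.2 normalized counts in control kidneys to 168, 104 and 249 in FeD kidneys (log2 fold change 3.63, SE 0.37; adjusted P = 0.000211, edgeR). Lcn2, neutrophil gelatinase-associated lipocalin, which binds the iron carriers of bacteria and marks injured tubules, went from 81.5, 95.1 and 63.2 to 529, 408 and 887 (2.94, SE 0.30; adjusted P = 0.000211, edgeR). Both genes were several fold above every control in every FeD kidney, with FeD kidney 3 the highest. Lrg1, a secreted glycoprotein, had 45.1, 46.5 and 52.5 in control and 316, 299.9 and 130.3 in FeD kidneys, with FeD kidney 3 the lowest (2.36, SE 0.33; adjusted P = 0.000881, edgeR). The FeD kidney with the highest level therefore differed from gene to gene.

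Among the remaining genes that rose 2-fold, 2 encode proteins of metal handling. Cp, ceruloplasmin, a copper-containing enzyme that oxidises iron, had 659, 659 and 606 normalized counts in control and 1449.7, 1852 and 2226 in FeD kidneys (log2 fold change 1.52, SE 0.14; adjusted P = 0.000149, edgeR). Steap4, which reduces iron and copper, rose by 1.14 (SE 0.14; adjusted P = 0.000537, edgeR). Fosl2, a subunit of the AP-1 transcription factor, had 929, 789.9 and 959 in control and 2626, 2712 and 2097 in FeD kidneys (1.47, SE 0.11; adjusted P = 6.52e-05, edgeR). Tnfrsf12a, the receptor of the cytokine TWEAK, rose by 1.60 (SE 0.22; adjusted P = 0.000782, edgeR).

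Smaller increases were those of Il4ra, Pim3, Myc, Lbp, Icam1 and Mcl1, with log2 fold changes of 0.46 to 0.75. Junb (0.77) lost its call without any one of the control kidneys (adjusted P up to 0.0578, edgeR), Gadd45b (0.61) without control kidney 2, control kidney 3 or FeD kidney 1 (up to 0.0792), and Pim1 (0.56) without any one of the control kidneys or without FeD kidney 1 or 2 (up to 0.101). The gene that fell was Bcl6, a transcriptional repressor (-0.73, adjusted P = 0.043, edgeR), whose groups overlapped and whose call was lost without control kidney 1, control kidney 3, FeD kidney 1 or FeD kidney 2 (up to 0.163). Bcl3, Saa3, Hp, Timp1 and Bcl2l1 did not pass. Saa3, an acute phase protein, varied most, with 10.7 to 85.2 normalized counts in control kidneys and 15.5 to 361 in FeD kidneys. Hamp, which encodes the iron hormone hepcidin and is a STAT3 target of the liver, had 0 to 2 raw counts in control kidneys and 3 to 13 in FeD kidneys and was not tested, as were Saa1, Saa2 and Orm1.

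**Figure D3:**
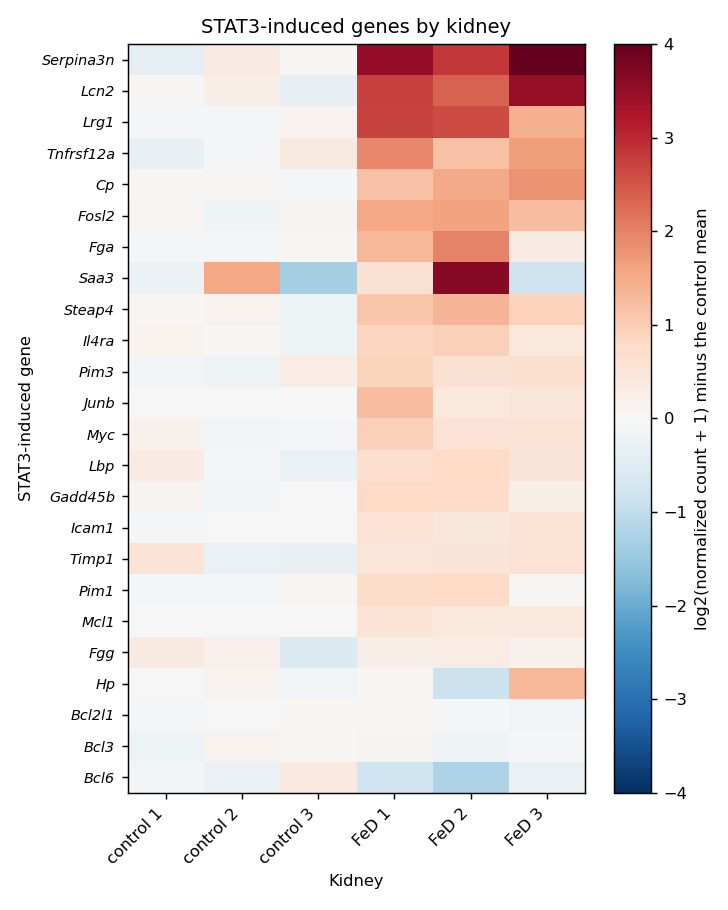
Heat map of the 24 tested STAT3-induced genes (rows) in the 6 kidneys (columns), coloured by log2(normalized count + 1) minus the mean of the control kidneys, red for higher and blue for lower. Serpina3n and Lcn2 are dark red in all FeD kidneys, Fga and Saa3 are uneven among them, and Bcl6 is the only gene lower in FeD by the test.

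**Figure D4:**
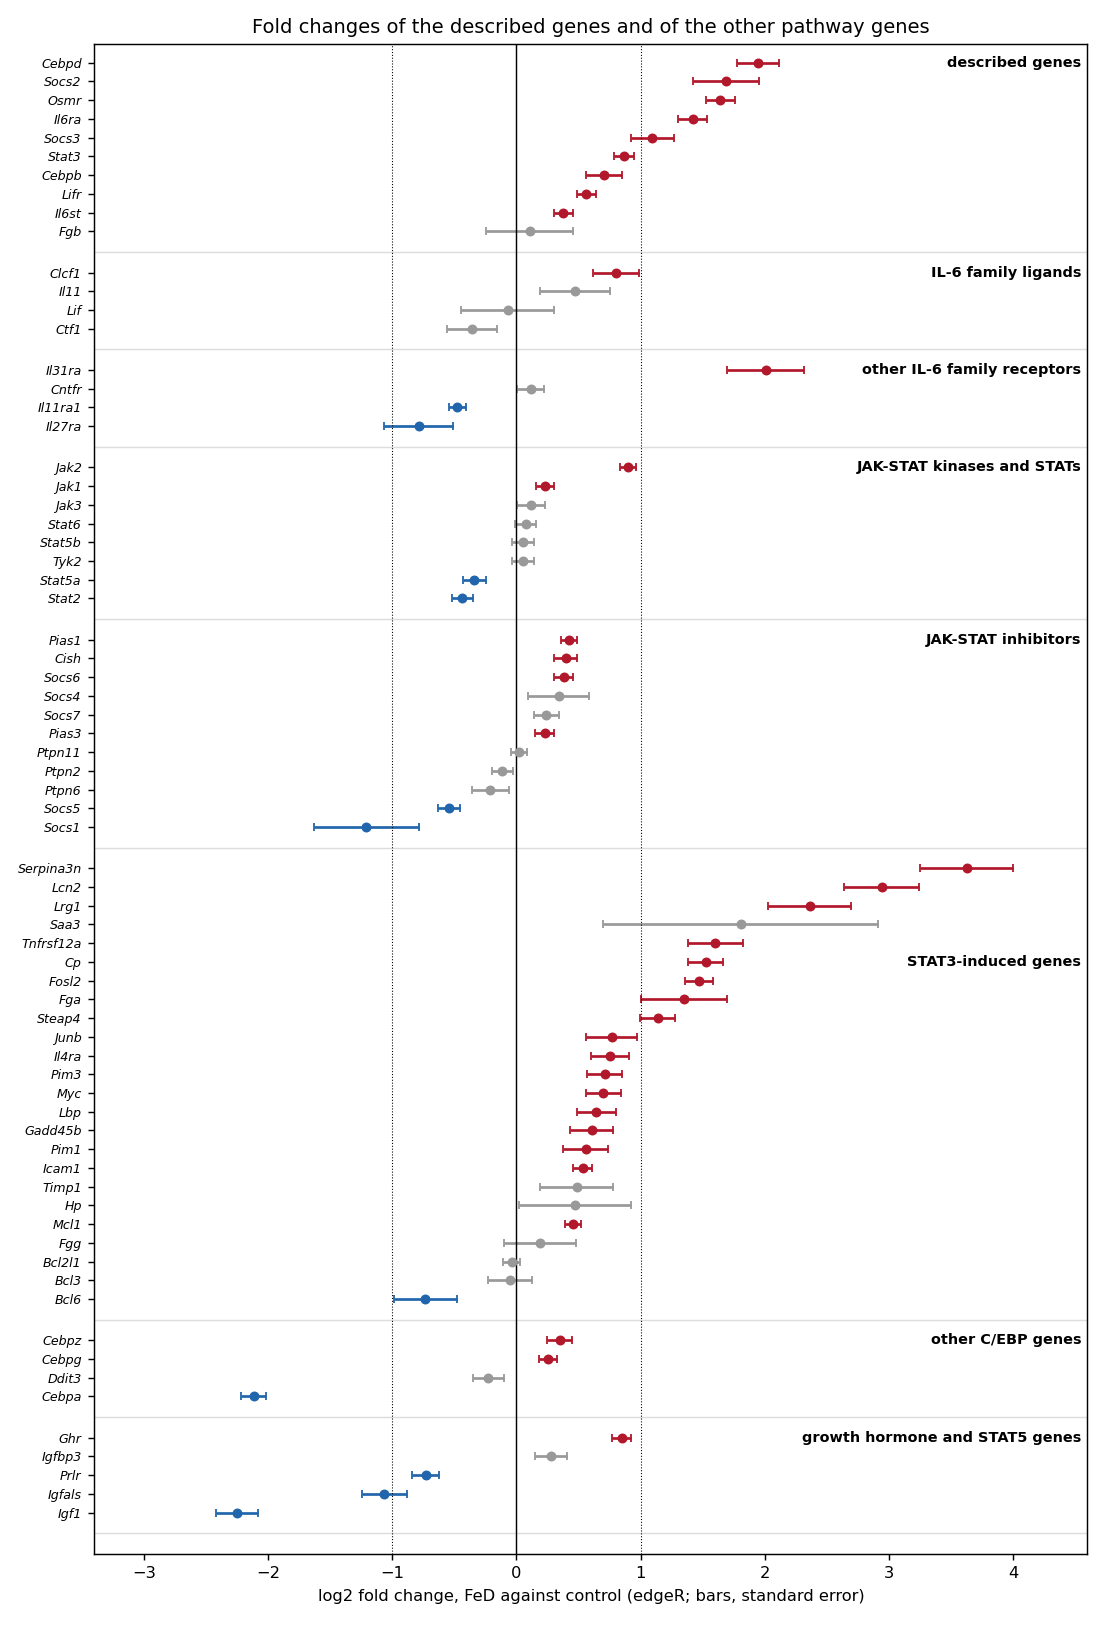
Log2 fold change of FeD against control (points; bars, standard error; edgeR) for the 10 described genes and the tested genes of the other pathway lists that are reported here; red, higher and blue, lower at an adjusted P under 0.05; grey, not passed; dotted lines, a 2-fold change. Among the 10 genes 9 are red and Fgb is grey, while the lists of other receptors, kinases and growth hormone genes hold both red and blue points.

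Over all pathway lists other than the 10 genes, 62 of 74 genes were tested, 28 rose, 13 fell and 21 did not pass, with a median log2 fold change of 0.27. Without control kidney 2 the counts were 20 and 11. Of all tested genes, 22.4% rose and 23.3% fell, the shares to set beside each list count given here.

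Ordered by mean normalized counts per kilobase of exon, control kidneys held Il6st (559), Cebpd (254), Stat3 (219), Lifr (206), Cebpb (164), Osmr (79.5), Socs3 (43.7), Il6ra (42.9), Socs2 (39.0) and Fgb (15.7). Neighbours in this order were separated in every kidney, except that Socs3 overlapped Il6ra and Il6ra overlapped Socs2. In FeD kidneys the order was Cebpd (977), Il6st (727), Stat3 (400), Lifr (304), Cebpb (268), Osmr (248), Socs2 (126), Il6ra (115), Socs3 (93.6) and Fgb (17.0). Cebpd lay above Il6st within each FeD kidney. Their ranges overlapped only across kidneys, with a lowest value of 801 for Cebpd and a highest of 807 for Il6st. Osmr had moved level with Cebpb, with overlapping values. Lifr with Cebpb, Socs2 with Il6ra, and Il6ra with Socs3 also overlapped.

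Within the FeD group the genes did not share a highest kidney. FeD kidney 1 was the highest for 5 genes (Cebpb, Cebpd, Socs3, Socs2 and Fgb), FeD kidney 3 for 3 (Il6ra, Il6st and Stat3) and FeD kidney 2 for 2 (Osmr and Lifr). The receptors and Stat3 were thus highest in other kidneys than the inhibitors and C/EBP factors. This is a description of 3 animals and was not tested.

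The genes with the pattern most like that of Il6ra were named by Pearson correlation of log2(normalized count + 1) over the 6 kidneys, among the 12932 genes that averaged 50 or more normalized counts. They were Dennd1b (r = 0.9994), Heca (0.9993), Cldn1 (0.9992), B630005N14Rik (0.9990) and Jak2 (0.9988). For Socs3 they were Eif2ak3 (r = 0.9981), Fgfr1op (0.9975), Trappc10 (0.9963), Zfp358 (0.9951) and Ptpn1 (0.9946). The 6 points share the 2 diet groups, and 1210 genes reached r = 0.95 with Il6ra and 307 with Socs3, so the names are a description of likeness alone.

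Markers of the cell types of the kidney also differed between the groups. Of 12 macrophage genes tested, 8 rose and 1 fell, with summed levels of 157.6 to 178.9 CPM in control and 189.6 to 222.3 CPM in FeD kidneys. Ctss rose by 1.53 (adjusted P = 8.96e-05, edgeR) and Cd68 by 1.12 (adjusted P = 0.00103), whereas Csf1r, which defines the lineage, fell by 0.45 (adjusted P = 0.00601). Without control kidney 1 or without control kidney 3, 5 of the 12 rose. Neutrophil genes had overlapping sums of 6.33 to 21.1 CPM in control and 12.4 to 28.8 CPM in FeD kidneys, none of 4 tested passing, and lymphocyte genes fell from between 7.7 and 10.6 CPM to between 1.44 and 2.02 CPM, all 3 tested being lower.

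Of 10 hepatocyte genes 6 were tested, and the list summed to 44.96 to 57.3 CPM in control and 149.8 to 186 CPM in FeD kidneys. Serpina1a, Serpina1b and Apoa2 rose, and Serpina1a, a member of a multicopy family that the kidney also expresses, made up most of the sum. Albumin (Alb) had 9 to 23 raw counts in control and 3 to 25 in FeD kidneys and did not pass (adjusted P = 0.877, edgeR), and Ahsg, F2 and Cps1 had at most 9 raw counts in any kidney. Among epithelial lists, 6 of 7 proximal tubule genes fell (summed level 7746 to 8149 CPM in control, 3377 to 3748 CPM in FeD). Of 5 genes of the loop and distal tubule 3 fell (7512 to 8354 and 5290 to 7952 CPM), the distal genes Slc12a3, Pvalb and Calb1. The loop genes Umod (-0.4, adjusted P = 0.0651, edgeR) and Slc12a1 (0.13, adjusted P = 0.585) did not pass. Of 5 collecting duct genes 3 rose and 2 fell (1247 to 1712 and 1784 to 2953 CPM), and of 5 endothelial genes 4 fell (732 to 774.8 and 497.3 to 611.9 CPM). Of 6 stromal genes 3 rose and 1 fell, and of 4 podocyte genes 1 rose, while both erythroid genes tested did not pass and 6 globin symbols had no counts in any kidney. The part of these shifts in the changes of the receptors, Stat3 and its response genes was not tested.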

How the data were processed

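Polyadenylated RNA of 6 kidneys was sequenced as single-end reads. Per the labels and methods, the authors used CASAVA 1.8.2, Trimmomatic, TopHat2 2.0.11 (mm9) and HTSeq on uniquely mapped reads, and deposited raw counts per gene without normalization. The annotation, counting mode and strand setting are not given in the sources used here. Groups came from the sample labels. Differential expression was tested by edgeR 4.0.16 under R 4.3.3 (filterByExpr, TMM, glmQLFit and glmQLFTest, Benjamini-Hochberg adjustment, no covariates). A standard error was the log2 fold change divided by the square root of F. Kidneys are different pups, and P values measure their spread alone.

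The genes, the pathway and marker lists and the rules were chosen with earlier results of these data known. Every member was named, as were ligands, receptors and list genes passing the adjusted P, and the 5 genes most like Il6ra and Socs3. Genes that did not pass, those not tested, Tmem189, Mpo and the markers were named outside this rule, after their values were seen. Some list genes are counted in the lists but not reported here by name.

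Exon lengths and positions came from GENCODE for NCBIM37 (mm9) and promoters from RefSeq (GRCm38.p6), each matched once to mm9. On simulated counts, in which 200 genes were changed, 184 of 191 tested genes with a true log2 difference of 2 were recovered (15024 genes). False calls numbered 2 with the 2-fold threshold added and 17 at the adjusted P alone. Recovery of log2 differences below 2, such as those of the genes described here, was not tested. Alternatives were DESeq2 1.42.0 and its size factors, library size alone, 2 other filters, a replicate block, 14 blood genes left out, and each kidney left out. Leaving out the blood genes could change little, since the 8 erythroid markers among them summed to at most 47.8 CPM in any kidney.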

Additional observations from a re-analysis of the deposited data

How the results depend on the processing

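Over 13 alternatives for each of the 10 genes (130 results), 128 kept their direction and their side of the adjusted P threshold. The exceptions were both of Fgb and changed direction only, since Fgb did not pass in any alternative. The log2 fold change of Fgb ranged from -0.14 to 0.43 when single kidneys were left out. It was negative without control kidney 2 (-0.10) and without FeD kidney 1 (-0.14). The count of 9 genes higher and 0 lower was the same in every alternative, by DESeq2 too. The count of 5 genes at least 2-fold higher was 4 without control kidney 2 or FeD kidney 1, where Socs3 stood at 0.99 and 0.93. Over the other pathway genes, 20 to 30 rose and 9 to 13 fell when single kidneys were left out. With the replicate number as a block the counts were 9 and 5 for the 10 genes and 27 higher and 12 lower for the other pathway genes. Kidneys with the same number came from different dams, and their deviations from the group means did not go together (r = -0.302, -0.00502 and -0.154), so the numbers were not taken as a pairing. Depth limited Il6, Osm and the ligand genes too low to test, and a small difference of Fgb could have been missed.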
